A study of Homo sapiens with 12 samples.

Results

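MGMT encodes O6-methylguanine-DNA methyltransferase, and its transcript was followed across 4 treatments of SKMEL2 cells, an established human melanoma line. It is 1 of 14582 genes named on the arrays. It was taken as the probe set of MGMT with the highest mean over the 12 arrays, and only 1 probe set (16710608) carries the name. The 4 groups held 3 arrays each, all taken after 24 hours. DTE cells received dabrafenib (100 nM), trametinib (10 nM) and entinostat (1 µM), DT cells the first and second of these, E cells entinostat alone, and DMSO cells the vehicle. Dabrafenib inhibits RAF kinases, trametinib inhibits the MEK kinases below RAF, and entinostat acts on histone deacetylases of class I. All arrays come from 1 line. Titles of the samples name the replicates biological and the series describes technical triplicates, and every p-value below therefore reflects array-to-array spread, which may be technical.

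MGMT reverses alkylation of guanine directly. It moves the alkyl group from the O6 position of the base to a cysteine of its own active site, after which the protein is not regenerated and is degraded, so a cell's repair capacity follows how much of it is made. Methylating drugs such as temozolomide and dacarbazine, both used against melanoma, make the lesion that MGMT removes. Lesions that remain mispair, and the mismatch repair system acts on them. The gene lies under a CpG island promoter that is silenced by methylation in many tumours.

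The promoter window is shown because several of the regulators measured below are known to act on it. It covers 250 bases before and 50 bases after the RefSeq start of MGMT (chr10:129466991-129467290, GRCh38.p14, plus strand), with capitals marking matches to the GC box core GGGCGG on either strand, the element that factors of the SP1 family bind.
MGMT promoter: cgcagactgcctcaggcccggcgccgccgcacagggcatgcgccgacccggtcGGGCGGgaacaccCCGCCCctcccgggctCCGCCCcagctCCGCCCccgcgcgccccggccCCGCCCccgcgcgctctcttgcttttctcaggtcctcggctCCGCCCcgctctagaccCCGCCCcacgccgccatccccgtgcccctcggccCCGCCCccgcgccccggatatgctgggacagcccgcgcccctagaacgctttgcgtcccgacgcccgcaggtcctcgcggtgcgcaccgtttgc
The window held 8 GC box cores, none overlapping, all before the start. Of 35116 RefSeq promoter windows of the same length, 44.95% held at least 1 such core and 0.812% held as many as MGMT. It also held 45 CG dinucleotides, a number reached by 3.48% of the windows, against a median of 14. The AP-1 core TGANTCA, searched on both strands, had 0 matches in the window and at least 1 in 7.71% of all windows. These matches describe the letters of the window, and neither binding nor methylation was measured here.

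The arrays differed in overall level, which bears on every value below. The deposited intensity of the median gene was 22.9 to 25.1 on the DTE arrays, 31.4 to 34.4 on the DT arrays, 39.4 to 51.6 on the E arrays and 33.4 to 41.3 on the DMSO arrays. The sources used here do not say how the deposited values were scaled between arrays. Differences are therefore given in deposited log2 values, after quantile normalization over all probe sets, and after centring each array on the median of the 500 genes nearest to MGMT in mean log2 level (like-brightness values). Of the melanocyte lineage markers 7 of 7 measured genes were above background in all 4 groups, with intensities of 18.9 to 2822 on single arrays. Outside that lineage, KRT14 (1 of 3 keratinocyte markers measured), LYZ (1 of 1 leukocyte marker) and VWF (1 of 1 endothelial marker) were above background in every group, and DCN (1 of 1 fibroblast marker) was not, with all 6 of these markers between 3.96 and 66.3. Over all genes 10345 of 14582 were above background in all 4 groups, so these counts do not tell cell types apart. The part of other cell types in the results was not tested.

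MGMT was a gene of middling brightness in every treatment. Its deposited intensity was 18.9, 25 and 21.2 on the DTE arrays. It was 37.1, 32.1 and 36.2 on the DT arrays and 37.1, 38.9 and 41.6 on the E arrays. On the DMSO arrays it was 42.1, 35.1 and 30.9. Each of the 3 DTE arrays lay below each of the other 9 arrays, while the DT, E and DMSO arrays overlapped. The group means were 21.7 ± 3.04 in DTE, 35.1 ± 2.66 in DT, 39.2 ± 2.29 in E and 36.1 ± 5.65 in DMSO (SD, n = 3 each). Ordered by mean, E stood highest, followed by DMSO and DT, and neighbours among these 3 did not differ beyond their spread. On any 1 array 43.4% to 52.4% of the genes were dimmer than MGMT, so its rank stayed close to the middle of the array in all groups.

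Background was estimated on each array from the 3646 genes that make up the dimmest 25% by mean, of which the 95th percentile was taken. It came to 11.1 to 16.2. MGMT exceeded this level on 12 of 12 arrays. By group means 10345 of 14582 genes were above it in all 4 groups. A level drawn from the dimmest 25% leaves most genes above it, so the count alone says little about MGMT. The distance was 1.87-fold in DTE, with a log2 difference of 0.90 ± 0.20 (SD, n = 3). It was 2.69-fold in DT (1.43 ± 0.13), 2.60-fold in E (1.38 ± 0.02) and 2.77-fold in DMSO (1.47 ± 0.18). On this gauge MGMT was above the dimmest genes with the smallest margin in DTE. Genes of like brightness also came nearer to background in DTE than in DMSO. Their median was 21.2 to 23.3 on the DTE arrays, where background was 11.1 to 12.2. On the DMSO arrays their median was 31.7 to 39.0, where background was 12.6 to 13.4. The smaller margin in DTE than in DMSO was therefore not particular to MGMT. A second gauge of background gave a less clear picture. Among the 85 measured genes of keratin-associated proteins, which build hair, 85.9% to 89.4% were dimmer than MGMT on a given array, and the remaining 9 to 12 genes were brighter. The median of that family was 7.11 to 9.69, below the background level, but its 95th percentile was 44.7 to 120, above MGMT on each array. How much of the MGMT signal is probe background cannot be told from these values, and a background share would make a fold change look smaller than it is.

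**Figure D1:**
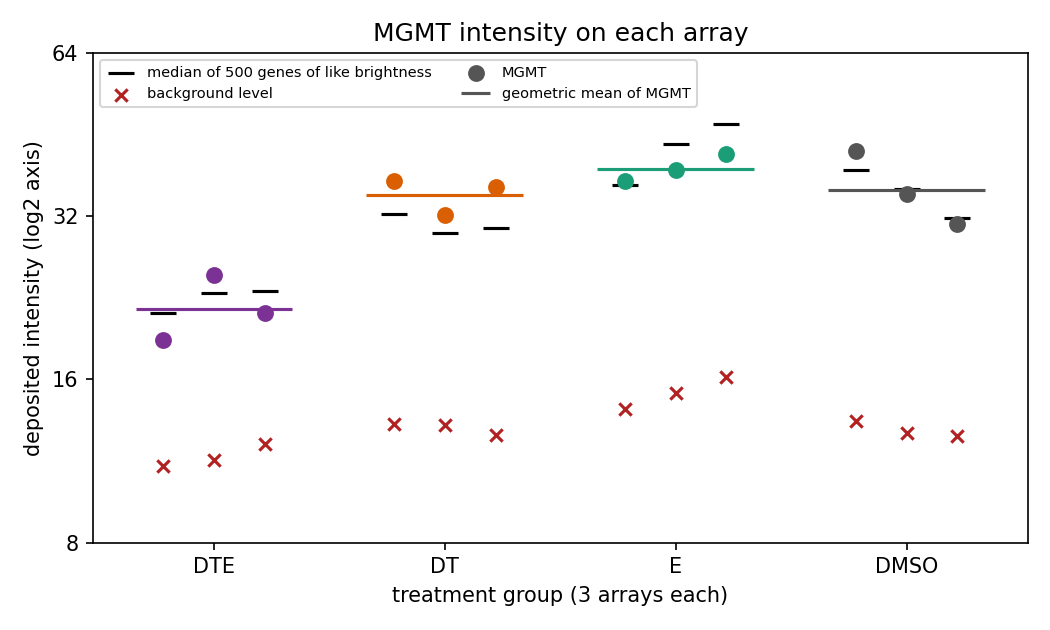
Deposited intensity of MGMT on each of the 12 arrays (points, log2 axis), with the geometric mean of each group (coloured line), the median of 500 genes of like brightness on the same array (black dash) and the background level of the array (red cross). The 3 DTE points, at 18.9 to 25, lie below the other 9, and the black dashes are lower in DTE too, at 21.2 to 23.3.

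In deposited values MGMT was lower with all 3 agents than with any other treatment. Against DMSO the difference in DTE was -0.73 ± 0.15 on the log2 scale (SE of the fit, 95% interval -1.03 to -0.43), a level of 60.3% of DMSO (limma, adjusted p = 1.07e-04). In bulk RNA, fewer cells of a kind and less RNA per cell cannot be told apart. In this comparison 60.8% of all genes fell and 4.26% rose, so a fall was the common outcome. The difference between DTE and DT was -0.70 ± 0.15 (interval -1.0 to -0.40, limma adjusted p = 2.60e-04), where 54% of all genes fell. The difference between DTE and E was -0.86 ± 0.15 (interval -1.16 to -0.56, limma adjusted p = 1.08e-05), where 78.5% of all genes fell. The arrays of DTE did not overlap with those of the other group in any of these 3 comparisons, and an exact permutation test gave a two-sided p = 0.1 for each, which is the lowest value possible with 3 arrays in each group.

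Neither treatment alone changed MGMT past the threshold. DT minus DMSO was -0.03 ± 0.15 (interval -0.33 to 0.27, limma adjusted p = 0.922), and E minus DMSO was 0.13 ± 0.15 (interval -0.17 to 0.43, limma adjusted p = 0.561). The intervals leave room for changes of up to 0.80-fold to 1.21-fold in DT and 0.89-fold to 1.35-fold in E. The interaction, which is the effect of entinostat on top of DT minus its effect on top of DMSO, was -0.83 ± 0.21 (interval -1.26 to -0.41, limma adjusted p = 0.00202). For the interaction 62.5% of all genes had a called negative value. It is built from the same arrays as the comparisons above.

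Relative to the other genes of the array, these differences were smaller or of the other sign, and 1 of the 4 calls was kept. MGMT measured 26.3, 34.8 and 27.0 on the DTE arrays after quantile normalization, against 36.2, 35.1 and 37.4 on the DT arrays, 32.4, 28.9 and 28.2 on the E arrays and 35.1, 32 and 31.9 on the DMSO arrays. The DTE arrays overlapped with the E and DMSO arrays on this scale, and lay below the DT arrays. DTE minus DMSO was -0.18 ± 0.11 (interval -0.41 to 0.05, limma adjusted p = 0.201). It was called in 1 of 12 fits that left out 1 array, the fit without DTE replicate 2 (-0.31, limma adjusted p = 0.0177). That is the DTE array with the highest MGMT value, so leaving it out lowers the DTE mean. In the other 11 fits it was not called, with limma adjusted p up to 0.508. DTE minus E was -0.03 ± 0.11 (interval -0.26 to 0.20, adjusted p = 0.881), and the interaction was -0.17 ± 0.15 (interval -0.49 to 0.16, adjusted p = 0.631). DT minus DMSO was 0.14 ± 0.11 and E minus DMSO was -0.15 ± 0.11 (limma adjusted p = 0.396 and 0.335), each with the sign opposite to that in deposited values.

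The difference between DTE and DT was the 1 that stayed called after quantile normalization. MGMT was -0.31 ± 0.11 in DTE relative to DT (interval -0.54 to -0.09, limma adjusted p = 0.0348), a level of 80.5% of DT, in a comparison where 18.2% of all genes fell. The call did not survive the loss of every single array. It held in 7 of 12 fits that left out 1 array, with values from -0.44 to -0.24. DMSO and E arrays enter this difference only through the shared spread, and every fit without 1 of them kept the call at -0.31. Among fits without a DT or DTE array, the call held only without DTE replicate 2 (-0.44, limma adjusted p = 0.00282). It was lost without DT replicate 1, 2 or 3 (-0.31, -0.34 and -0.29), where the difference stayed near -0.31 and the DT group held fewer arrays. It was also lost without DTE replicate 1 or 3 (-0.24 and -0.26), where the difference was smaller in size. In like-brightness values the same difference was -0.25 ± 0.10 (interval -0.47 to -0.02, adjusted p = 0.0609), short of the threshold, and the groups overlapped.

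**Figure D2:**
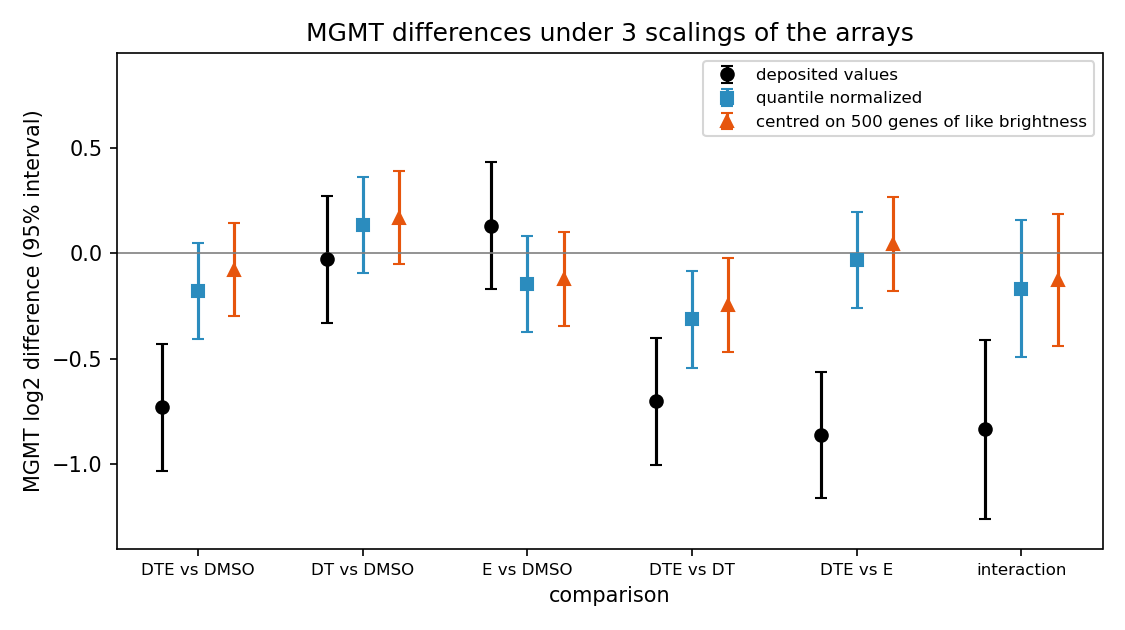
Log2 difference of MGMT in the 6 comparisons with its 95% interval from limma, in deposited values (circles), after quantile normalization (squares) and centred on 500 genes of like brightness (triangles). The deposited values of DTE vs DMSO, DTE vs DT, DTE vs E and the interaction lie between -0.86 and -0.70, and the values under the other scalings lie between -0.31 and 0.17.

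MGMT was next set beside genes of the same brightness. These 500 genes had mean intensities of 30.0 to 34.3, close to MGMT. Their median difference between DTE and DMSO was -0.65 in deposited values, with the middle 50% between -0.93 and -0.35, and 369 of them fell while 28 rose. MGMT, at -0.73, was 0.08 below that median, and 41.2% of the 500 genes fell further. Between DT and DMSO the median was -0.17, so that MGMT stood 0.15 above it, with 69.8% of the 500 genes lower than MGMT. Between E and DMSO the median was 0.22 and MGMT was 0.09 below it, with 38.8% lower. MGMT was farthest from the median of these genes in DTE minus DT, by -0.23, with 22% of the genes lower.

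**Figure D3:**
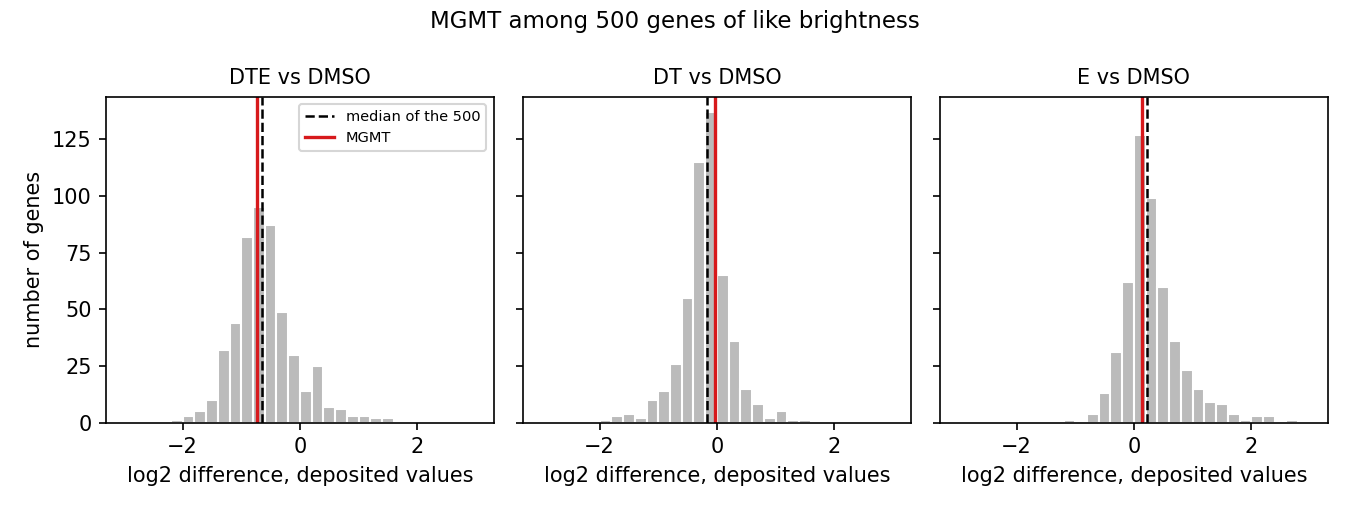
Log2 differences of 500 genes of like brightness in deposited values (grey histograms), with their median (dashed) and MGMT (red line). In DTE vs DMSO the median is -0.65 and MGMT is -0.73, and in all 3 panels MGMT lies inside the bulk of these genes.

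Averaged over cells with and without DT, the effect of entinostat on MGMT was -0.29 in deposited values (stratified exact permutation test, two-sided, p = 0.115). It was -0.23 after quantile normalization (exact p = 0.025), -0.18 in like-brightness values (exact p = 0.03) and -0.21 after centring on the median gene (exact p = 0.025). The smallest p that the 400 regroupings allow is 0.005, and these p-values are for MGMT alone and were not adjusted over scalings. On the quantile scale the difference was -0.31 with DT and -0.15 without it. In deposited values it was -0.70 with DT and 0.13 without it, so the average joins differences of opposite sign. Averaged over cells with and without entinostat, the effect of DT was -0.44 in deposited values (exact p = 0.05). That average joins -0.03 without entinostat and -0.86 with it. On the relative scales the average DT effect had the opposite sign, 0.05 after quantile normalization (exact p = 0.5) and 0.11 in like-brightness values (exact p = 0.135).

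The other genes listed for direct reversal were measured in part. They are the ASCC subunits ASCC1, ASCC2 and ASCC3 of the complex that assists the dealkylase ALKBH3, which with MGMT make 4 of 7 entries. The other 3 are not analysed here. With DTE 4 of 4 fell in deposited values, where 60.8% of all genes fell, with a median of -0.85 for the list and -0.54 for all genes. After quantile normalization 1 rose (ASCC1) and 1 fell (ASCC2), where 20% of all genes rose and 23% fell. ASCC2 had intensities of 34.2 ± 1.89 in DTE and 105 ± 7.54 in DMSO (SD, n = 3), a difference of -1.61 ± 0.15 (quantile -0.68). ASCC3 fell too (-0.97 ± 0.15) but was 0.13 on the quantile scale (limma adjusted p = 0.236). ASCC1 was -0.51 ± 0.16 in deposited values and 0.36 after quantile normalization (limma adjusted p = 0.0068), so its direction turned with the scaling. With DT, ASCC2 (-0.92 ± 0.15, quantile -0.58) and ASCC3 (-0.61 ± 0.15, quantile -0.24) fell, where 23.1% of all genes fell and 4.72% rose. With E 0 of 4 passed limma's test in either scaling, and 0 of 4 had an unadjusted p under 0.05 in deposited values and 1 after quantile normalization.

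Most measured genes of base excision repair, which removes other alkylated bases, fell with DT and with DTE. Of 8 measured genes (of 12), 6 fell with DT in deposited values, where 23.1% of all genes fell. After quantile normalization 5 fell with DT (APEX1, APEX2, XRCC1, PARP2 and FEN1), where 15% of all genes fell and 14.6% rose. With DTE 8 fell in deposited values, where 60.8% of all genes fell. After quantile normalization 7 fell with DTE, with medians of -0.67 for the list and -0.04 for all genes, where 23% of all genes fell and 20% rose. FEN1, the flap endonuclease, was at 56.2 ± 1.28 in DTE, 78.7 ± 8.23 in DT and 255 ± 26.9 in DMSO (SD, n = 3). Its difference was -2.18 ± 0.14 for DTE (quantile -1.13) and -1.70 ± 0.14 for DT (quantile -1.32). With DTE the abasic site endonuclease APEX1 was -1.82 ± 0.15 (quantile -0.81). XRCC1, the scaffold of single-strand break repair, was -1.88 ± 0.15 (quantile -0.81), and the poly(ADP-ribose) polymerase PARP2 was -1.97 ± 0.15 (quantile -0.92). With E 0 of 8 were called by limma in deposited values and 1 had an unadjusted p under 0.05, where 20.8% of all genes rose and 4.81% fell. After quantile normalization APEX1 (-0.38 ± 0.08) and XRCC1 (-0.36 ± 0.08) fell with E, where 16.2% of all genes fell and 15.3% rose.

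Mismatch repair, which acts on the mispairs that unrepaired O6-methylguanine forms, was measured for 6 of 20 listed genes. With DT 4 fell in deposited values (MSH3, PMS1, EXO1 and PCNA), and all of these but MSH3 fell after quantile normalization. Over all genes 23.1% fell with DT in deposited values and 15% after quantile normalization. EXO1, the exonuclease of the pathway, was at 27.8 ± 3.51 in DT and 94.96 ± 12.6 in DMSO (SD, n = 3), a difference of -1.77 ± 0.15 (quantile -1.43). PCNA, the sliding clamp, was -1.54 ± 0.14 (quantile -1.20). With DTE 6 fell in deposited values, where 60.8% of all genes fell. After quantile normalization 3 fell, where 23% of all genes fell, namely MLH3 (-0.38), EXO1 (-0.92) and PCNA (-0.63). MSH3, a mismatch recognition subunit, was -0.14 and PMS2, an endonuclease of the pathway, was -0.11 on that scale (limma adjusted p = 0.33 and 0.513). With E the 1 gene of 6 called in deposited values was EXO1, which rose (0.47 ± 0.15, quantile 0.33), where 20.8% of all genes rose.

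Genes of the checkpoint and death response to such mispairs were measured for 9 of 13 entries. With DT 6 fell in deposited values, where 23.1% of all genes fell, and 5 after quantile normalization, where 15% of all genes fell. They include ATR (-0.71 ± 0.16, quantile -0.41), the kinase that starts the checkpoint, and its partner ATRIP (-1.04 ± 0.16, quantile -0.73). The effector kinase CHEK1 was -1.36 ± 0.14 (quantile -0.97), the ATR activator TOPBP1 was -1.21 ± 0.16 (quantile -0.83) and the clamp subunit RAD1 was -0.97 ± 0.14 (quantile -0.68). With DTE 8 fell in deposited values, where 60.8% of all genes fell. After quantile normalization those 5 genes fell, and RAD17 (0.38) and PMAIP1 (0.44) rose, where 23% of all genes fell and 20% rose. RAD17 was among the 8 that fell in deposited values (-0.71 ± 0.15), so its direction turned with the scaling. TOPBP1 was at 42.7 ± 6.32 in DTE and 192 ± 34.1 in DMSO (SD, n = 3), a difference of -2.16 ± 0.16 (quantile -1.15). With E 1 gene rose in deposited values, the pro-apoptotic PMAIP1 (1.26 ± 0.15, quantile 0.88), where 20.8% of all genes rose. After quantile normalization RAD17 (0.31 ± 0.10), which loads the checkpoint clamp, also rose, and TOPBP1 (-0.34 ± 0.10) and ATRIP (-0.36 ± 0.11) fell. On that scale 15.3% of all genes rose with E and 16.2% fell.

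Genes listed as regulators of the MGMT promoter moved in both directions. Of 18 measured genes (of 23), 1 rose (JUN) and 5 fell (FOSL1, NFKB1, ZEB1, DNMT1 and HDAC2) with DT in deposited values, where 4.72% of all genes rose and 23.1% fell. With E 8 rose and 2 fell (NFKB1 and CREBBP), where 20.8% of all genes rose and 4.81% fell. With DTE 1 rose (JUN) and 14 fell, where 4.26% of all genes rose and 60.8% fell. After quantile normalization 4 rose (JUN, EP300, CREBBP and DNMT3A) and 3 fell (FOSL1, ZEB1 and DNMT1) with DT, where 14.6% of all genes rose and 15% fell. On that scale 7 rose and 4 fell with E, where 15.3% of all genes rose and 16.2% fell. With DTE 7 rose and 5 fell, where 20% of all genes rose and 23% fell. JUND, MBD2, HDAC1 and HDAC3 fell with DTE in deposited values and rose after quantile normalization. JUN, the AP-1 subunit, was at 148 ± 9.74 in DTE, 523 ± 40.1 in DT, 222 ± 17.1 in E and 115 ± 14.2 in DMSO (SD, n = 3). It rose with DTE by 0.37 ± 0.14 (quantile 1.42), with DT by 2.19 ± 0.14 (quantile 2.52) and with E by 0.96 ± 0.14 (quantile 0.84). Its partner FOSL1 was -2.65 ± 0.14 with DTE (quantile -1.65) and -1.17 ± 0.14 with DT (quantile -0.79). NFKB1, an NF-kappa-B subunit, was -2.18 ± 0.15 with DTE (quantile -1.27) and -1.01 ± 0.15 with E (quantile -1.14). DNMT1, the maintenance DNA methyltransferase, was at 95.1 ± 10.9 in DTE, 152 ± 14.6 in DT and 358 ± 43.3 in DMSO (SD, n = 3). Its difference was -1.91 ± 0.15 for DTE (quantile -0.83) and -1.23 ± 0.15 for DT (quantile -0.89). SP1 was -0.93 ± 0.16 with DTE in deposited values (limma adjusted p = 2.06e-05) and 0.13 after quantile normalization (limma adjusted p = 0.249). It was not called on either scale with DT (-0.10 ± 0.16, quantile 0.23) or with E (0.07 ± 0.16, quantile -0.003). MGMT itself was within 0.18 of DMSO on the quantile scale in each of the 3 treatments.

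**Figure D4:**
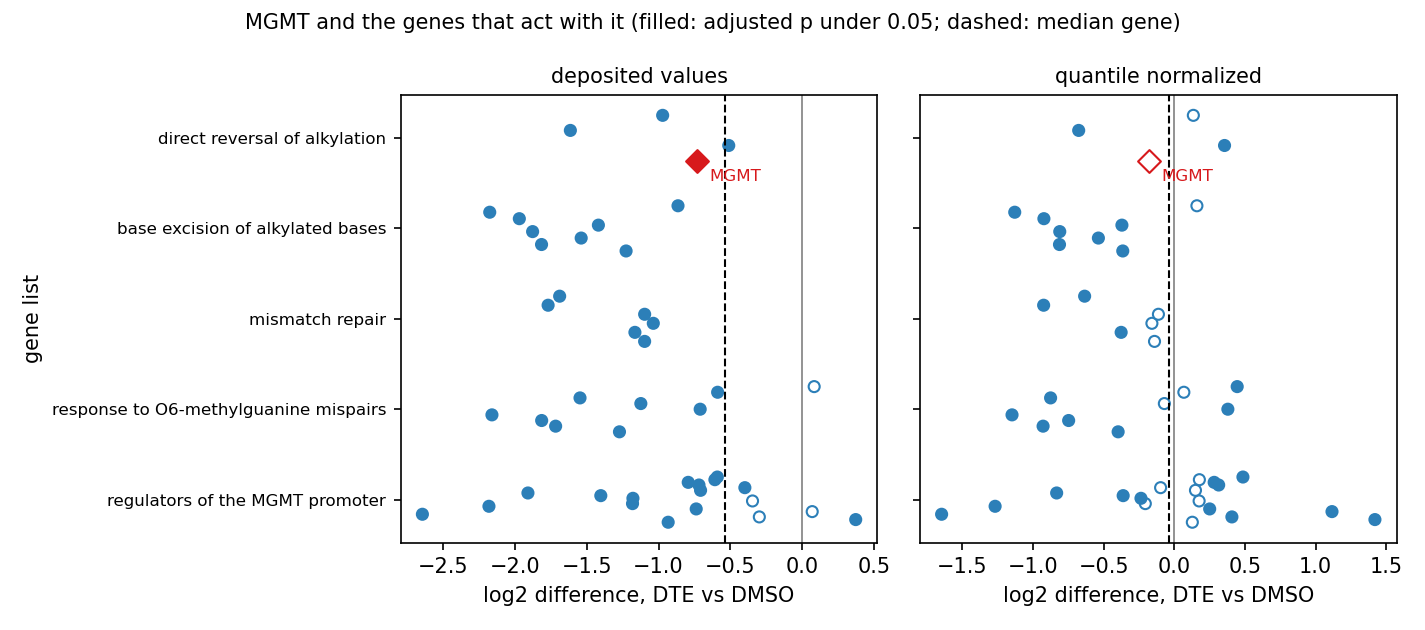
Log2 difference between DTE and DMSO for the measured genes of the 5 lists, in deposited values (left) and after quantile normalization (right); filled symbols passed an adjusted p of 0.05, the dashed line is the median of all genes, and MGMT is the diamond. MGMT is at -0.73 on the left and -0.18, unfilled, on the right, while FEN1 is at -2.18 and -1.13.

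The genes whose profile was most like that of MGMT were sought among 10344 other genes above background in all 4 groups. The measure was the root mean square difference of log2 profiles in deposited values over the 12 arrays, each profile centred on its own mean. The kinase DYRK2 came first at 0.0792, followed by the chaperonin-like BBS10 at 0.0842, METTL25 at 0.0863, the homeobox gene HOXD8 at 0.0878 and the ubiquitin-conjugating enzyme UBE2A at 0.0886. The median over the 10344 genes was 0.273. Their deposited differences between DTE and DMSO, which the choice by likeness fixes, were -0.67 for DYRK2, -0.70 for BBS10, -0.77 for METTL25, -0.73 for HOXD8 and -0.81 for UBE2A. After quantile normalization DYRK2 (-0.16) and HOXD8 (-0.12) had the sign of MGMT (-0.18), and METTL25 (0.12), BBS10 (0.38) and UBE2A (0.23) had the opposite sign. Of these BBS10 and UBE2A were called higher on that scale (limma adjusted p = 0.00237 and 0.0339). The overall level of each array is shared by all these profiles. In quantile-normalized values the measure was 0.0769 for DYRK2 and 0.0959 for HOXD8, against 0.229 for BBS10.

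Of the 4 measured genes nearest to MGMT on its chromosome, 3 rose with E on both scales, namely MKI67, EBF3 and MIR4297. Over all genes 20.8% rose with E in deposited values and 15.3% after quantile normalization. Of these 3 neighbours only MKI67 was above background in all 4 groups. MKI67, the proliferation antigen and the nearest measured gene before MGMT, was at 182 ± 32.8 in DTE, 171 ± 23.2 in DT, 692 ± 49.98 in E and 491 ± 37.97 in DMSO (SD, n = 3). It fell with DTE (-1.44 ± 0.15, quantile -0.40) and with DT (-1.53 ± 0.15, quantile -1.19), and rose with E (0.50 ± 0.15, quantile 0.43). CLRN3, the next gene before it, was not above background in any group, with group means of 5.09 to 6.76. After MGMT, the transcription factor gene EBF3 had group means of 6.14 to 10.6, also not above background in any group, and its difference with E was 0.72 ± 0.16 (quantile 0.55). The microRNA gene MIR4297 had group means of 12.4 to 20.5, above background in DTE, DT and E but not in DMSO, and its difference with E was 0.75 ± 0.16 (quantile 0.47). MGMT, between them, was 0.13 with E (quantile -0.15) and not called.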

How the data were processed

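The values analysed are linear intensities per probe set, deposited by the authors for 29398 probe sets on 12 Affymetrix arrays. Per the submitters' processing notes they were made with RMA and Transcriptome Analysis Console, and ERCC spike-ins were added before RNA extraction, per the labels' protocols. The sources used here do not say whether scaling used them, or how RMA output became linear. The design assumed log2 values, so log2 was taken, with no constant added and no filter. Of the probe sets, 14750 were named for 1 gene through the platform annotation and RefSeq identifiers, and 14648 were not used in the gene tests. The brightest of several probe sets stood for a gene.

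The model, fitted by lmFit and eBayes of limma (version 3.58.1 under R 4.3.3), held a mean for each group over the 12 arrays. P-values were adjusted by Benjamini-Hochberg over 14582 genes within a comparison, with a threshold of 0.05. "Rose" and "fell" mean past that threshold, in deposited values unless quantile is named. Effects averaged over the other treatment used exact permutation of MGMT values. The procedure was tested on simulated data. MGMT, the 5 gene lists and the tests were chosen with earlier results of these data known. Named genes were MGMT, up to 4 members per list with the smallest adjusted p against DMSO, members behind counts of 5 or fewer, the 5 genes most like MGMT and its 2 nearest measured genes on each side. SP1 was named too, for the GC box cores marked in the promoter window. Precision is limited by 3 arrays a group. Alternatives were other scalings, an added constant, a filter on dim genes, all probe sets, a replicate block, other variance models, array weights, fewer groups, other background levels and leaving out each array.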

Additional observations from a re-analysis of the deposited data

Results flagged for a closer look

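The effect of entinostat on MGMT differed with and without dabrafenib plus trametinib in deposited values, with an interaction of -0.83 (limma adjusted p = 0.00202). Entinostat changed MGMT by -0.70 on top of dabrafenib plus trametinib and by 0.13 on top of DMSO. The median interaction over all genes was -0.63, and after quantile normalization that of MGMT was -0.17 (adjusted p = 0.631).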

How the results depend on the processing

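The scaling of the arrays changed calls or directions of MGMT. Quantile normalization, centring on the median gene and centring on genes of like brightness gave 0.14, 0.17 and 0.17 for DT vs DMSO, -0.15, -0.15 and -0.12 for E vs DMSO, -0.18, -0.087 and -0.077 for DTE vs DMSO, -0.031, 0.067 and 0.044 for DTE vs E, -0.17, -0.10 and -0.13 for the interaction, 0.052, 0.12 and 0.11 for the average DT effect, and -0.23, -0.21 and -0.18 for the average E effect. For DTE vs DT both centrings gave -0.26 and -0.25. The cause was not tested. An added constant of 10, a filter on dim genes, all probe sets, trend and robust variance and array weights kept direction and side of the threshold in all 6 comparisons, as did fits of only the groups compared in the 5 comparisons of 2 groups. Same-numbered arrays deviated together (over 0.1) in 2 of 18 pairs, with correlations from -0.22 to 0.13, so the numbers were not taken as pairs. A replicate block changed no call within a scaling. With the block, deposited values gave -0.73 for DTE vs DMSO (adjusted p = 2.69e-04), and quantile values gave 0.14, -0.15, -0.18, -0.031 and -0.17 for DT, E and DTE vs DMSO, DTE vs E and the interaction, and -0.31 for DTE vs DT (adjusted p = 0.0495).

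Leaving out each array in turn gave -0.13 to 0.090 for DT vs DMSO and 0.03 to 0.25 for E vs DMSO. It gave -0.84 to -0.61 for DTE vs DMSO and -0.81 to -0.61 for DTE vs DT. The ranges were -0.97 to -0.77 for DTE vs E and -0.95 to -0.73 for the interaction. For the average DT effect the range was -0.50 to -0.39, with exact permutation p from 0.025 to 0.08. That p was under 0.05 only without DMSO replicate 3 (0.025) or DT replicate 1 (0.04). The average E effect ranged from -0.34 to -0.23. DT vs DMSO turned positive without DMSO replicate 1 (0.090) or DT replicate 2 (0.036). After quantile normalization, chosen after seeing the data, the ranges were 0.11 to 0.18, -0.21 to -0.10, -0.31 to -0.10, -0.44 to -0.24, -0.16 to 0.042 and -0.29 to -0.09 in the same order of the 6 comparisons. The log2 distance from background ranged over 0.79 to 0.97 in DTE, 1.39 to 1.5 in DT, 1.37 to 1.38 in E and 1.38 to 1.55 in DMSO.

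The background level chosen set that distance. The 99th percentile gave 0.63 in DTE, 1.17 in DT, 1.06 in E and 1.23 in DMSO, and the dimmest 10% of genes gave 1.65, 2.30, 2.37 and 2.34. Quantile values gave 1.13 in DTE and 1.21 in E. The keratin-associated genes, chosen after seeing the data, gave -1.18, -1.68, -1.4 and -0.86. Olfactory receptor genes were not run because only 1 was named, and averaging probe sets because MGMT has 1. Quantile normalization changed the number of genes called to 6269 from 9490 for DTE vs DMSO, to 5020 from 8466 for DTE vs DT, to 2931 from 11489 for DTE vs E and to 599 from 9147 for the interaction.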
